A study of Saccharomyces cerevisiae with 9 samples.

Results

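The regions described are the promoters and 5' ends of 203 protein-coding genes of Saccharomyces cerevisiae whose MNase-Seq signal just upstream of the transcription start site (TSS) was not below that just downstream of it. They were selected on the signal itself: of 2426 genes in the deposited tables, 2404 had a mean of at least 3 RPM (reads covering a base, scaled to the number of mapped reads) over the 61 bins from -500 to 1000 nt, and 203 of those 2404 (8.44%) had a mean over the promoter window at or above the mean over the +1 window. The promoter window is the 4 bins between -150 and -25 nt, both excluded, and the +1 window the 4 bins from 0 to 75 nt. The other 2201 genes are called genes with a 5' depletion below. The series holds 9 samples, of which 8 are ChIP-exo libraries of RNAPII (Rpb3) or Nrd1 from WT and rtr1Δ cells and are not analysed here. The remaining sample is total histone MNase-Seq of wild type cells grown to an OD600 of 0.8, with 1 value per gene and bin, so no difference below has a replicate check and no test of a condition was possible.

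MNase digests the linker DNA between nucleosomes, and the protected DNA that is sequenced reports where histones sit. At most yeast genes a nucleosome-depleted region lies just upstream of the TSS, where the transcription machinery assembles, and it is followed by the +1 nucleosome and a regular array over the gene body. Sequence-specific general regulatory factors such as Reb1, Abf1 and Rap1, together with chromatin remodellers, are known for keeping such regions open. Genes with a TATA box and with strongly regulated expression are known for promoters that nucleosomes can cover.

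The rule compares the windows with each other and not with the rest of the gene. At 28 of the 203 genes (13.8%) the promoter window was itself below the gene's own mean. Within 400 nt on either side of the TSS, 151 of the 203 genes (74.4%) had a bin under 50% of their own mean, against 1868 of the 2201 genes with a 5' depletion (84.9%) and 84% of all 2404 genes. Most of the 203 genes therefore held a depleted bin. That it mostly lay elsewhere than in the promoter window follows from the selection. The 151 genes include some with similar sequence elsewhere in the genome and 0 RPM in the gene body, such as SSA1 and RPS8A.

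The sequences upstream of 5 of these genes are shown first. At COG4, HCM1, PHO5 and GAP1 the signal of the promoter window stood above the gene's own mean. ADR1 was only at its mean there (5.67 RPM against 5.66 RPM) and had 2.71 RPM in the +1 window. Each run is the 250 bases before the start codon in RefSeq's R64 assembly (the assembly behind sacCer3, to which the reads were mapped), read 5' to 3' on the gene's strand. Capitals mark matches on either strand to the searched motifs (TATAAA, the TATA box; CGGGTAA, the Reb1 site; ACACCCA, part of the Rap1 site; CACGTG, the Cbf1 and Pho4 site; CCCCT, the Msn2 and Msn4 site; and the Abf1 consensus) and runs of at least 7 A or 7 T. COG4 encodes a subunit of a Golgi tethering complex, HCM1 a forkhead transcription factor, PHO5 the repressible acid phosphatase, GAP1 the general amino acid permease and ADR1 an activator of glucose-repressed genes.
COG4 (chrXVI:739570-739819, minus strand): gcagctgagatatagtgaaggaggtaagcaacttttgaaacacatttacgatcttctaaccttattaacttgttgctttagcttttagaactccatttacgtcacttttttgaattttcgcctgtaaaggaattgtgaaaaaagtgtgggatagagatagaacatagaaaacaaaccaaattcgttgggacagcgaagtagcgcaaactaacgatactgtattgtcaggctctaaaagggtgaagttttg
HCM1 (chrIII:229060-229309, plus strand): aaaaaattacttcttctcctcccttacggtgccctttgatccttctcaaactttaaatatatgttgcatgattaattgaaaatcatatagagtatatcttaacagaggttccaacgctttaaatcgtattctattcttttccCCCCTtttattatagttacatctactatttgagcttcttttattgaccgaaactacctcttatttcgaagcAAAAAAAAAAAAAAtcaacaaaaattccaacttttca
PHO5 (chrII:430952-431201, minus strand): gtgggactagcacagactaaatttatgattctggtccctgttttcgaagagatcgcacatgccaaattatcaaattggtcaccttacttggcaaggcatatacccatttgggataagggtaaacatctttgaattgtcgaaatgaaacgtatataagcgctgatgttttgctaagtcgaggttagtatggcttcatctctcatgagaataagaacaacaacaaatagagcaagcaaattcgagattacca
GAP1 (chrXI:514813-515062, plus strand): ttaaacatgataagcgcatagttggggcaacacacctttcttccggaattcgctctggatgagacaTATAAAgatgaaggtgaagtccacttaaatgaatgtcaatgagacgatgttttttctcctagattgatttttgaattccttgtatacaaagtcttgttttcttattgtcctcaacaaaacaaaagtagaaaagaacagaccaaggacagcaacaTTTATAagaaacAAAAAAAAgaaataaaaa
ADR1 (chrIV:894785-895034, plus strand): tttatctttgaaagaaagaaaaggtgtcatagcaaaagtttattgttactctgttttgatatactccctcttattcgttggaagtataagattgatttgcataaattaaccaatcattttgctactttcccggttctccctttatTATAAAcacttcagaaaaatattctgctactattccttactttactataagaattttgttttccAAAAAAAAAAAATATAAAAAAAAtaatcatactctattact
None of the searched strings occurred in the 250 bases of COG4 and PHO5. The search took these letters exactly, so variants of a site, such as the tatataag of PHO5, were not counted. Sites cut by the far edge of the 250 bases, or beyond it, were not counted either. HCM1 had a run of 14 A from 37 to 24 bases before the start codon and 1 CCCCT. GAP1 had 2 matches to TATAAA, the farther from 184 to 179 bases before the start codon on the coding strand. ADR1 had 2 matches to TATAAA and runs of 12 and 8 A that lie next to and across the nearer match.

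The tables count from a transcript start and the printed sequences count from the start codon, so a base cannot be placed exactly on a bin. For 353 genes with 300 to 800 bases between start and stop codon, the TSS and TES tables overlapped and could be matched at a Pearson r of at least 0.9 (as a description, over the shared bases). Their TSS to TES distance exceeded the coding span by a median of 150 nt (quartiles 115 and 200), and by a median of 175 nt at the 34 of them that belong to the 203. Only 4 of the 353 (1.13%) came within 25 nt of no excess.

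On average the 203 genes carried a broad peak where the others carried their trough. The mean signal of the 203 genes was highest at -100 nt, at 7.98 RPM, whereas the mean of the 2201 genes with a 5' depletion was lowest at -75 nt, at 3.83 RPM. At 25 nt, where the 2201 genes peaked at 9.34 RPM, the mean of the 203 genes was 6.07 RPM. Those values were used by the rule and are a description. Outside the windows of the rule, the average of the 203 genes was also flatter. From 100 to 1000 nt it ran between 5.404 and 6.28 RPM, against 5.26 to 7.55 RPM for the others. The 7.55 RPM lay at 100 nt, next to the +1 window, so part of this difference follows from the selection. Single genes were not flat: the coefficient of variation over the bins from 100 to 1000 nt had a median of 25.6% in the 203 genes and 25.3% in the 2201. Single genes thus varied alike along the body in both sets, while the average of the 203 genes was flatter.

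**Figure D1:**
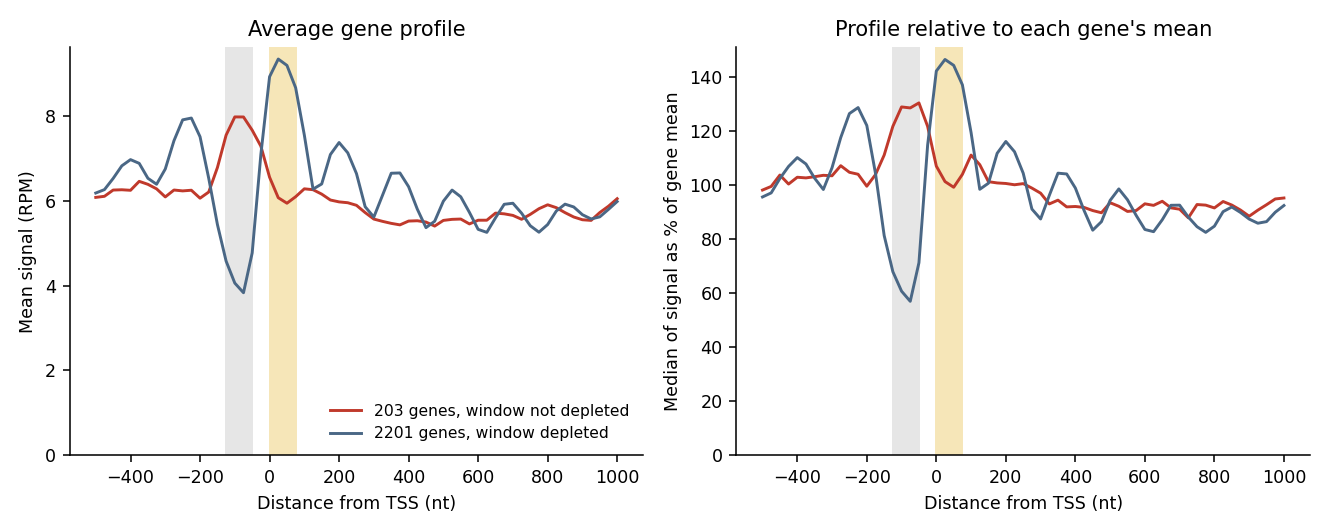
Average MNase-Seq profile around the TSS of the 203 genes without a depletion in the window (red) and of the 2201 genes with one (blue), as mean RPM (left) and as the median over genes of the signal in percent of each gene's own mean (right). The grey band is the promoter window and the yellow band the +1 window, which chose the genes. The red mean peaks at 7.98 RPM at -100 nt, and the blue mean falls to 3.83 RPM at -75 nt.

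The median signal of the promoter window was 7.68 RPM (quartiles 6.63 and 8.82) in the 203 genes and 4.18 RPM (quartiles 3.14 and 5.38) in the others. From 0 to 75 nt the order was the reverse, with medians of 6.31 RPM (quartiles 5.18 and 7.28) and 8.999 RPM (quartiles 7.72 and 10.2). Farther upstream, from -500 to -150 nt, which the rule did not use apart from the mean, the 203 genes had a median of 6.20 RPM and the others 6.85 RPM, with quartiles that overlapped. The medians over 100 to 1000 nt were 5.87 and 6.05 RPM, and the medians over the whole window 6.12 and 6.33 RPM. The values of the promoter and +1 windows were used by the rule and are a description.

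The depth of the library limits how sharply the group is bounded. Every one of the 9633 edge values above 0 in the tables was a whole multiple of 0.03002 RPM within 0.01 read, so 1 read was worth 0.03002 RPM and the library held 33313664 reads. The 203 genes had a median of 256 reads over a base of the upstream window and 210 over a base of the +1 window. With the reads over a base taken as counts, the exact 95% interval of the ratio of the upstream window to the +1 window lay above 1 for 94 genes and held 1 for 109 genes. It also held 1 for 196 genes outside the group. The intervals cover counting error only.

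Just inside the threshold lay BAT2, a cytosolic branched-chain aminotransferase, with a ratio of 1.00001, SFH5, a phosphatidylinositol transfer protein, with 1.00132, and THI72, a transporter related to the thiamine permeases, with 1.00259. Just outside lay FBP1, fructose-1,6-bisphosphatase, with 0.999, APP1, a phosphatidate phosphatase, with 0.999, and IRC7, a beta-lyase, with 0.999. SFH5 had 3.84 RPM upstream and 3.83 RPM at the +1 window, and FBP1 had 6.87 RPM in both. The interval of each of the 6 ratios held 1.

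**Figure D2:**
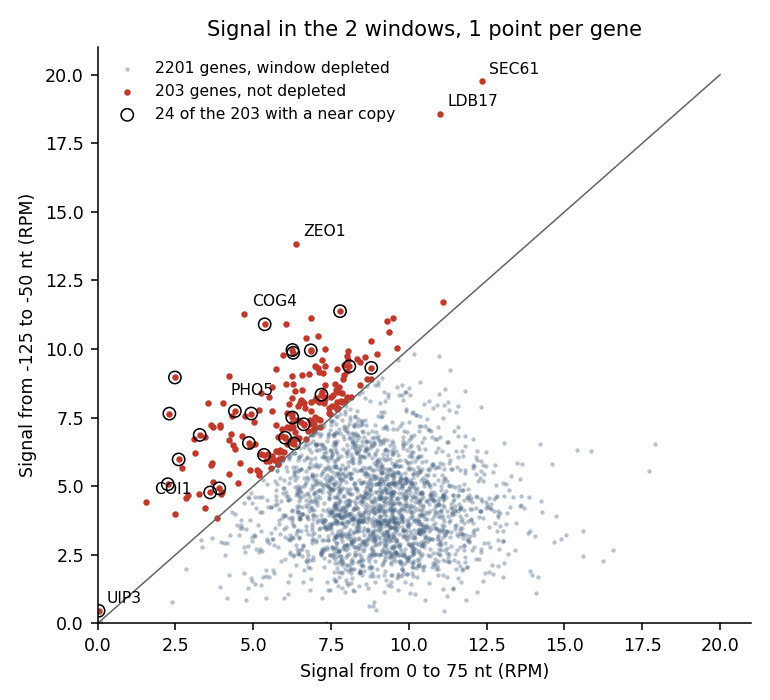
Signal of the promoter window against signal of the +1 window, both in RPM, with 1 point for each of the 2404 tested genes. Red points are the 203 genes on or above the line of equal signal, circled where another place in the genome aligns to the start region (24 genes). SEC61 at 19.8 RPM and LDB17 at 18.6 RPM stand above all others on the vertical axis.

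Among genes with a start region found once in the genome, the ratio was highest at COI1, a mitochondrial inner membrane protein of respiratory complex assembly. COI1 had 4.43 RPM upstream and 1.56 RPM from 0 to 75 nt, a ratio of 2.83 (interval 2.06 to 3.98), and its lowest bin, 0.314 RPM, was at 25 nt. COI1 entered the group through a low +1 window, since its upstream signal was close to the median of the genes with a depletion.

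COG4 was the opposite case. It had 11.3 RPM upstream and 4.72 RPM at the +1 window, a ratio of 2.39 (interval 1.98 to 2.90). Its signal rose from 0.958 RPM at -225 nt to 11.98 RPM at -100 nt and fell to 2.84 RPM at 50 nt, before a second block of 8.88 RPM at 150 nt. A trough and 2 peaks were thus present, upstream of where the average of the other genes has them.

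HCM1, whose product drives late cell cycle genes, followed a similar course. Its highest bin within 400 nt of the TSS, 8.93 RPM, lay at -175 nt, upstream of the promoter window. Its upstream window held 6.72 RPM and its +1 window 3.08 RPM, a ratio of 2.18, with 0.447 RPM at -300 nt and 1.84 RPM at 50 nt. At CAT8, a zinc cluster activator of gluconeogenic genes, the windows held 9.03 and 4.21 RPM (ratio 2.14), with 1.93 RPM at -275 nt. ZEO1, which encodes a peripheral plasma membrane protein, had 13.8 RPM upstream against 6.37 RPM, a ratio of 2.17, with 18.96 RPM at -100 nt and 1.96 RPM at -275 nt. Each of these 3 genes had its upstream trough between -300 and -275 nt.

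ADR1 had 5.67 RPM upstream and 2.71 RPM at the +1 window, a ratio of 2.09, and within 400 nt of the TSS its lowest bin, 1.98 RPM, was at 25 nt, although 1.47 RPM lay farther out at -425 nt. GIP3, a regulatory subunit of the Glc7 phosphatase, was alike, with 8.04 and 3.54 RPM, a ratio of 2.27 and its lowest bin at 50 nt. MRPS17, a mitochondrial ribosomal protein, had 6.22 and 3.13 RPM (ratio 1.99), also with its lowest bin at 50 nt. In these 3 genes, as at COI1, the lowest bin within 400 nt of the TSS was inside the +1 window. RNR4, a small subunit of ribonucleotide reductase, had 7.23 and 3.64 RPM (ratio 1.98) and its lowest bin at 300 nt.

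PHO5 is the textbook example of a promoter that nucleosomes cover while phosphate is plentiful. It had 8.05 RPM upstream and 4.01 RPM at the +1 window, a ratio of 2.01 (interval 1.62 to 2.48). Its signal stayed at or above 6.35 RPM in every bin from -275 to 0 nt, with 11.2 RPM at -225 nt, and its upstream minimum of 2.89 RPM lay at -325 nt. In the gene body the signal fell to the depth of 1 read at 375 nt. Only 94.5% of the 50-base stretches of the PHO5 coding sequence occur once in the genome, and where the rest recur was not determined. The neighbouring acid phosphatase gene PHO3 was also in the group, with 9.41 and 7.92 RPM (ratio 1.19) and the depth of 1 read at 350 nt. The part of shared sequence in the low body values of both genes was not tested.

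GAP1 also carried signal over a long upstream stretch. It had 10.4 RPM upstream and 6.70 RPM at the +1 window, a ratio of 1.55 (interval 1.31 to 1.84). From -350 to -25 nt no bin was below 5.67 RPM, and the lowest bin of the upstream side was 0.180 RPM at -425 nt. The start codon of GAP1 lies 1659 bases from the next gene upstream, against a median of 442 bases for genes with a depletion.

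The tallest signals stood at SEC61 and LDB17, which are described here for their levels in the plot of both windows; SEC61 was chosen after its values were seen. SEC61, the channel of the endoplasmic reticulum translocon, had 19.8 RPM upstream, the highest of the 2404 genes, and 12.3 RPM at the +1 window, with 29.2 RPM at -50 nt. LDB17, an endocytic protein with the highest mean signal of the group (8.89 RPM), ranked next with 18.6 RPM against 11.01 RPM. Its signal stepped from 9.76 RPM at -175 nt to 27.6 RPM at -150 nt and from 25.7 RPM at -100 nt to 11.4 RPM at -75 nt. After LDB17, the highest means in the group were 8.33 RPM at SMN1 and 8.01 RPM at YSA1, an ADP-ribose hydrolase. The block of 3 bins at LDB17 had steeper edges than the peak at SEC61. The 20 genes with the highest signal in the promoter window were all in the group, and 46 of the highest 50 were, as a description, since the rule used that signal.

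**Figure D3:**
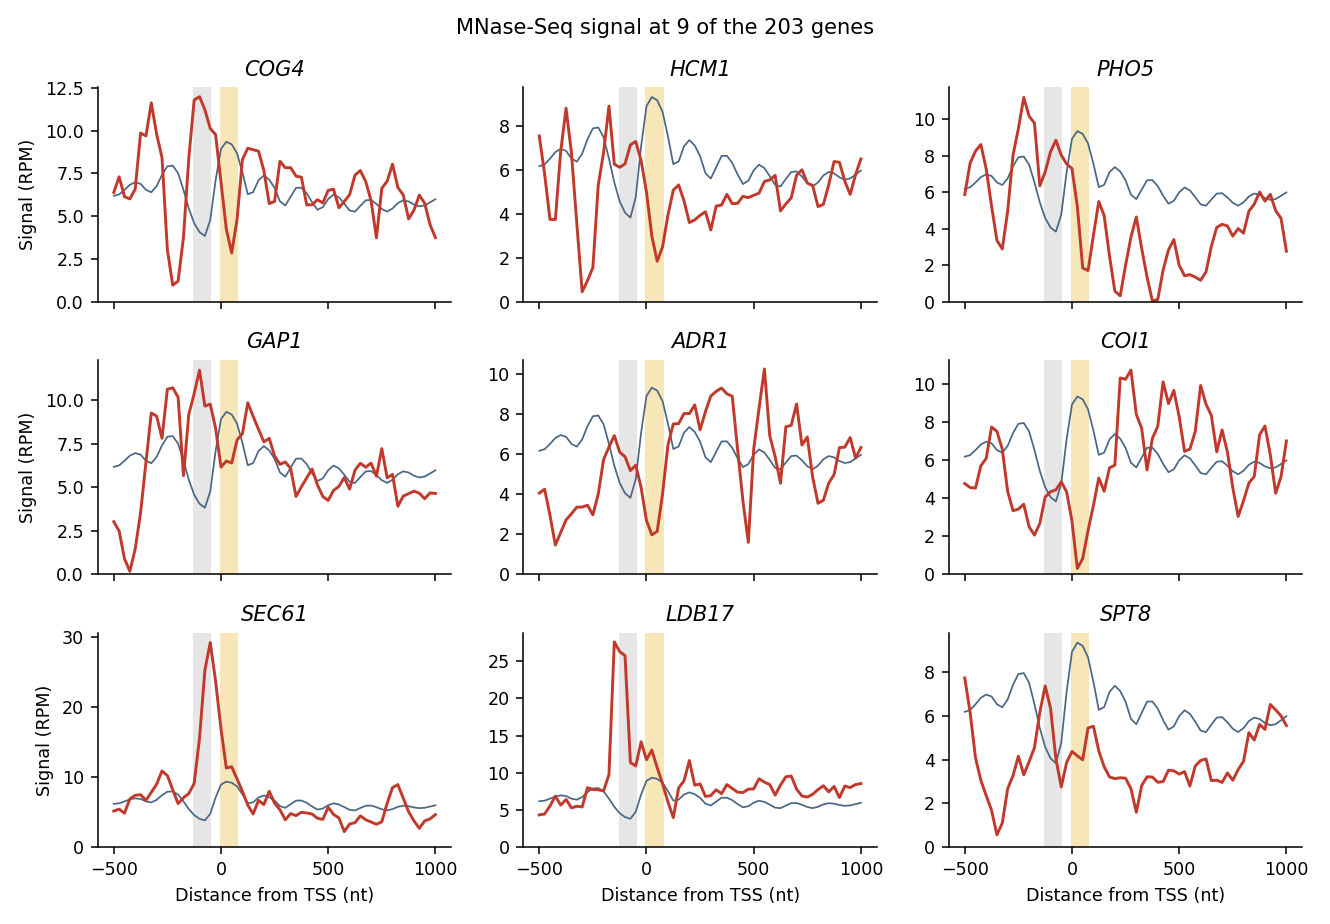
MNase-Seq signal in RPM against distance from the TSS at 9 of the 203 genes (red), with the mean of the 2201 genes with a depletion (blue) and the same bands for the windows of the rule; the vertical scale differs between panels and starts at 0. COG4 shows a trough upstream of a peak in the grey band, and HCM1 a trough upstream of a peak at -175 nt. PHO5 and GAP1 show a long covered stretch, ADR1 and COI1 a trough in the yellow band, and SEC61 and LDB17 peaks of 29.2 and 27.6 RPM.

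The lowest bin between -400 and 400 nt lay upstream, from -400 to -150 nt, at 98 of the 203 genes (48.3%). It lay from 100 to 400 nt at 69 genes (33.99%), from -25 to 75 nt at 31 (15.3%) and in the promoter window at 5 (2.46%). Among the 2201 genes with a depletion the same 4 classes held 36.5%, 10.6%, 2.95% and 49.98%. The rule itself lowers the share in the promoter window and raises the share around the +1 window.

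Of the 98 genes with an upstream trough, the signal at the lowest bin had a median of 2.62 RPM and the ratio a median of 1.15. At the 31 genes with a trough around the TSS the +1 window had a median of 3.93 RPM and the ratio a median of 1.58, which follows from how the class is defined. In the upstream class the highest contrasts between the lowest and the highest bin were at UIP3, a member of the DUP240 family, and at MTC1, with 0.240 RPM at -200 nt and 12.2 RPM at 225 nt. UIP3 had no separate upstream trough: it was at 0 RPM at -225, 0 and 25 nt alike, and no bin from -500 to 100 nt was above 0.753 RPM. In the class of the promoter window the highest contrasts were at SPO7, a subunit of a nuclear membrane phosphatase, with 2.36 RPM at -50 nt, and at FAA2, an acyl-CoA synthetase, with 2.18 RPM at -100 nt. In the class around the TSS they were at ALD2, a cytosolic aldehyde dehydrogenase, with 0 RPM at 75 nt, and at COI1. In the body class they were at RPL24B, with 0.0301 RPM at 200 nt, and at HSC82, with 0.0719 RPM at 275 nt.

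**Figure D4:**
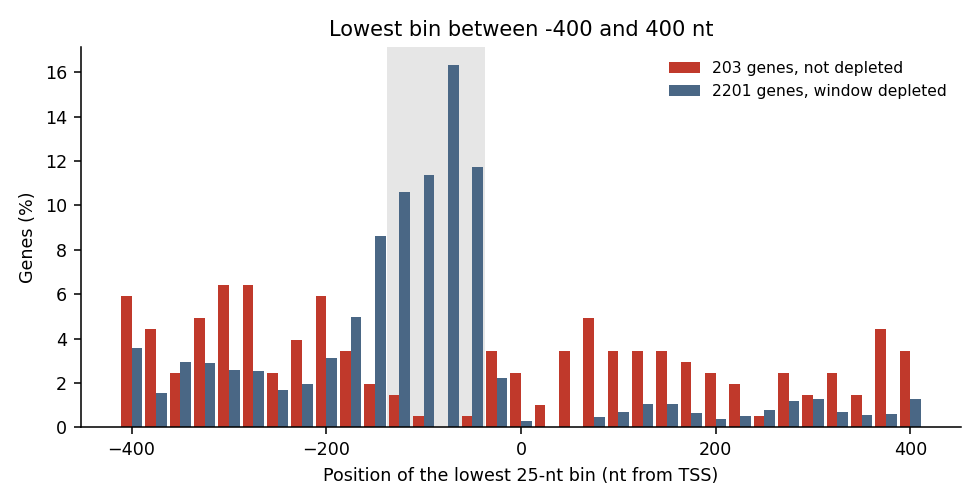
Position of the lowest 25-nt bin between -400 and 400 nt from the TSS, as a percent of the 203 genes (red) and of the 2201 genes with a depletion (blue). The grey band covers the promoter window, which holds 2.46% of the red and 49.98% of the blue genes; the red bars spread over both sides, with 48.3% upstream of the band.

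Each profile was then laid over the average profile of the genes with a depletion (its bins from -200 to 400 nt) at offsets from -250 to 250 nt in steps of 25 nt, and the offset with the highest Pearson r was kept. The r is a description over 25 bins that overlap in reads. At 67 of the 203 genes (33%) the highest r reached 0.7, against 1371 of the 2201 (62.3%). The average laid over is that of the 2201 genes themselves and holds both windows of the rule. A lower share in the 203 genes is therefore set by the selection and is only a description. Of these 67 genes, 49 had the pattern displaced by at least 50 nt upstream, 18 by at least 50 nt downstream and 0 within 25 nt, with a median of -100 nt. Among the genes with a depletion that reached 0.7, 145 were displaced upstream, 73 downstream and 1153 lay within 25 nt. The rule sets part of this: the average profile of all tested genes, moved along in the same steps, met it at 8 offsets upstream (from -75 to -250 nt) and at 5 downstream (from 100 to 200 nt). No direction is therefore read from the counts. ZEO1 matched at -150 nt (r = 0.82), BAT2 at -100 nt (r = 0.82), and COG4 (r = 0.75) and DSE4, a daughter cell wall glucanase (r = 0.80), at the step between these. VSB1, a vacuolar amino acid transporter, matched at 175 nt downstream (r = 0.88) and NCE102, an eisosome protein, at 150 nt downstream (r = 0.87). The other genes of the 203 had no offset at which the average pattern reached that r. Whether the annotated start or the nucleosomes are displaced was not tested.

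Reads from near-identical genes move with the result at the top of the ranking. Of the 202 genes placed in R64 (YDR133C was not found there), 24 (11.9%) had another place in the genome aligning to the 501 bases around the start codon at 85% identity or more over at least 75 bases, against 48 of 2201 (2.18%) of the genes with a depletion. The 24 included the histone genes, SSA1, ENO1, PDC1, HSC82, ALD2, UIP3 and 7 ribosomal protein genes. The ribosomal protein genes RPS8A and RPS8B, which encode the same protein of the small subunit, show how close such copies are. Their first 150 coding bases, printed with the bases that differ in capitals, differ at 11 positions.
RPS8A (chrII:88976-89125, minus strand): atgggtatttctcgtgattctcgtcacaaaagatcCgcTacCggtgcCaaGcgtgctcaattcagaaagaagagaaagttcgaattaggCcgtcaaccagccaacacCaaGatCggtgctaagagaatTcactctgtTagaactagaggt
RPS8B (chrV:363100-363249, plus strand): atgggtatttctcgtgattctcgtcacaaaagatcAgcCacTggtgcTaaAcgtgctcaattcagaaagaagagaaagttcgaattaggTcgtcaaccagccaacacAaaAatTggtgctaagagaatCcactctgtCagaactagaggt
RPS8A had 5.07 RPM upstream and 2.25 RPM at the +1 window (ratio 2.25), and RPS8B had 5.98 and 2.60 RPM (ratio 2.30). Both fell to 0 RPM in the gene body, at 375 and 400 nt. UIP3 had the highest ratio of all, 15.6, from 0.457 RPM upstream and 0.0292 RPM at the +1 window, which is the depth of 1 read, and its interval ran from 2.31 to 631. Only 84.96% of its 50-base stretches around the start codon occur once in the genome. ALD2 (ratio 3.32) had 52.4% such stretches.

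How reads with several places were mapped is not given in the sources used here, and the part of shared sequence in these values was not tested. Without the 24 genes the group held 179 of 2332 genes, its median ratio was 1.17 (1.18 with them), and the average peak upstream was 8.02 RPM. The share of genes with the lowest bin from 100 to 400 nt fell to 27.4%, and the share with an upstream trough was 53.6%. Counting copies anywhere from 600 bases before to 1000 bases after the start codon left 164 genes, with 52.4% upstream and 27.4% in the body, against 34.6% and 9.88% in the genes with a depletion treated alike. This count does not catch all shared sequence: PHO5, with its lowest bin of 0.0300 RPM at 375 nt, was left in. The 3 genes of the group with the lowest mean signal were all among the 24: ENO1, enolase, at 3.02 RPM, SSA1, an Hsp70 chaperone, at 3.46 RPM, and PDC1, pyruvate decarboxylase, at 3.58 RPM.

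The genes of the group stood farther from their upstream neighbours. The median distance from the start codon to the next annotated gene upstream was 646 bases (quartiles 411 and 975) in the 202 placed genes and 442 bases (quartiles 296 and 673) in the others. The share of tested genes that were in the group was 4.99% (30 of 601) for gaps under 300 bases, 6.37% (64 of 1005) from 300 to under 600, 11.7% (61 of 521) from 600 to under 1000 and 17.03% (47 of 276) from 1000 bases. Without near copies the median gap of the group was 612 bases. The extremes in the group were THI72 (3420 bases) and ZRT1, the high-affinity zinc transporter (3268 bases).

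The orientation of the upstream gene differed less. The upstream neighbour was in tandem at 93 of 202 genes (46.04%) and at 49.3% of the others. Downstream, a convergent neighbour followed 38.1% of the group and 32.99% of the others. The gene length between start and stop codon, introns included, had a median of 1356 bases in the group and 1461 bases in the others.

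Among the motifs, the Reb1 site differed most between the sets in relative terms. CGGGTAA occurred in the 250 bases before the start codon of 4 of the 202 genes (1.98%), 203 of the other 2201 (9.22%) and 8.61% of all tested genes. In each class of upstream gap the share was lower in the group, though it rests on few genes. It was 1 of 30 (3.33%) against 9.81% under 300 bases, and 2 of 64 (3.12%) against 9.46% from 300 to under 600. It was 1 of 61 (1.64%) against 9.13% from 600 to under 1000, and 0 of 47 against 6.99% from 1000 bases. The Abf1 consensus occurred in 16 genes of the group (7.92%), in 13.3% of the genes with a depletion and in 12.8% of all. TATAAA, which may overlap a run of A or T, occurred in 49.5% of the group, in 40.6% of the others and in 41.4% of all.

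The other searched strings differed little in percentage points, and CACGTG and ACACCCA were rare in both sets. CCCCT occurred in 20.8% of the group, 18.7% of the others and 18.9% of all, CACGTG in 1.98%, 3.18% and 3.08%, and ACACCCA in 0.990%, 1.73% and 1.66%. A run of at least 7 A or 7 T, a sequence known to resist wrapping around histones, occurred in 45.05% of the group, 48.7% of the others and 48.4% of all. The GC content from 200 to 50 bases before the start codon had a median of 35.8% in the group and 34.4% in the others. A match is only an occurrence of the letters in this window.

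The 4 promoters of the group that held CGGGTAA on either strand are printed with all searched matches in capitals, for comparison with the 5 above.
MRPS17 (chrXIII:637005-637254, minus strand): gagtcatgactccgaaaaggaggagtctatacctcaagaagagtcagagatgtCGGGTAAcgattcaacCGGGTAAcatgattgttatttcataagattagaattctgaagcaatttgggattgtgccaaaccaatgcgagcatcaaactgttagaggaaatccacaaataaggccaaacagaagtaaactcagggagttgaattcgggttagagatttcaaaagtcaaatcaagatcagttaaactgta
HSC82 (chrXIII:632105-632354, plus strand): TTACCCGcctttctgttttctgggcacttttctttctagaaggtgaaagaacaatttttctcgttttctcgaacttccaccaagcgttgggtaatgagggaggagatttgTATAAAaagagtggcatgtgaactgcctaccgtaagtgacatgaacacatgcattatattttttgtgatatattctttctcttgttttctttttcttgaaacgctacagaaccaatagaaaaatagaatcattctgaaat
GCS1 (chrIV:52174-52423, minus strand): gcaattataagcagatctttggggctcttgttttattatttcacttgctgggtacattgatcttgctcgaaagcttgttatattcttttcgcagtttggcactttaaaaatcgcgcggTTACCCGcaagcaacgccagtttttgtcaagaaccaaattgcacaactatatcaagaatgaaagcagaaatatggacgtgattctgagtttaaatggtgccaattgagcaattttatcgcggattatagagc
VTC3 (chrXVI:517019-517268, minus strand): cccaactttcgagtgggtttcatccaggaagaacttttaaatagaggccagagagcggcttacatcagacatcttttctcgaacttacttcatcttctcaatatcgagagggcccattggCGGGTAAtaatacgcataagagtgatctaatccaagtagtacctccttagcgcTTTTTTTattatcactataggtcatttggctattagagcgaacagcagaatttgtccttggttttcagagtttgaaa
MRPS17 held 2 copies, from 197 to 191 and from 181 to 175 bases before the start codon, and its signal from 0 to 75 nt was 3.13 RPM. HSC82, an Hsp90 chaperone gene with a near copy, held 1 at the far edge of the window together with a TATAAA. GCS1, an ADP-ribosylation factor GTPase activator, had 5.44 and 4.22 RPM in the windows (ratio 1.29), and VTC3, a subunit of the vacuolar transporter chaperone complex that makes polyphosphate, had 6.77 and 6.42 RPM (ratio 1.05). The interval of the ratio lay above 1 at MRPS17, HSC82 and GCS1 and held 1 at VTC3.

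**Figure D5:**
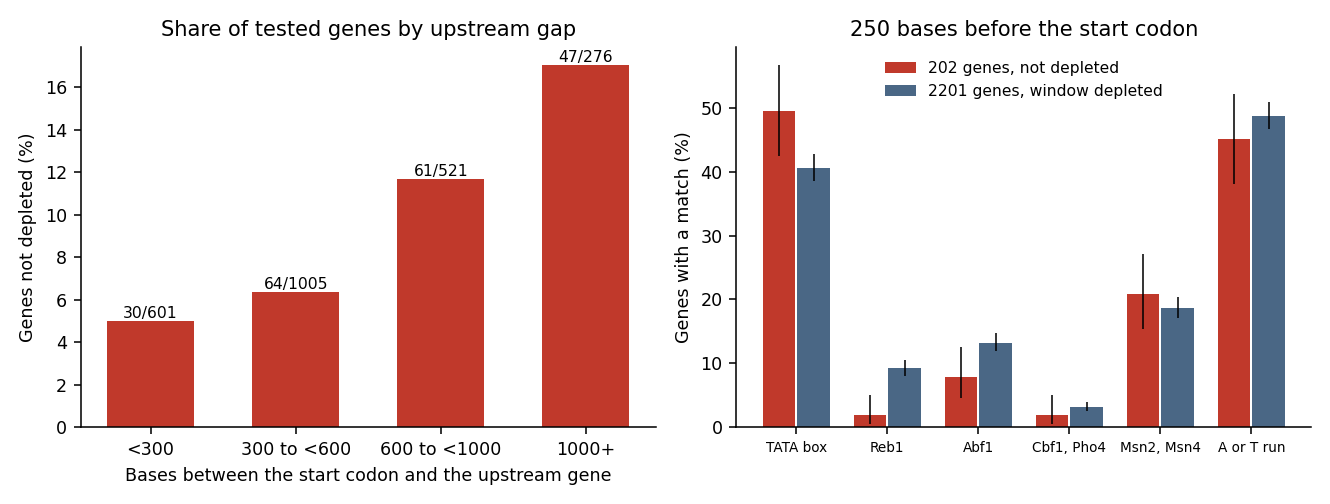
Left, percent of tested genes that belong to the 203, by the number of bases between the start codon and the next gene upstream, with the counts above each bar; it runs from 4.99% to 17.03%. Right, percent of genes with each motif or a run of at least 7 A or T in the 250 bases before the start codon, in the 202 placed genes (red) and the 2201 others (blue); bars are exact 95% binomial intervals, which cover counting over genes only. The Reb1 site was in 1.98% of the red and 9.22% of the blue genes.

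Genes in divergent pairs allowed the trough to be placed on both transcripts. At 20 of the 203 genes, and at 283 of the others, the profile could be laid over that of a divergent partner in the table at a Pearson r of at least 0.95 (a description, since both profiles count the same reads), with 0 to 400 bases left for both leaders. The distance between the 2 TSSs had a median of 585 nt at the 20 genes and 295 nt at the 283. At 8 of the 20 genes the partner was also in the group, which makes 4 pairs: FUS3 with PEP1, HTA1 with HTB1, STT3 with PIB2 and ERG3 with SPT8. At the 283 others the partner was in the group for 13 (4.59%), while the rule covers 8.44% of tested genes. Where TSSs lie close, as at STT3 and PIB2 (200 nt apart), the promoter windows of both partners share bases. Membership of such partners is therefore not independent, and the counts are a description.

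The pair ERG3 and SPT8, chosen after its values were seen, shared a single trough midway. ERG3 encodes a sterol desaturase and SPT8 a subunit of the SAGA coactivator, and their TSSs lay 670 nt apart. The signal was lowest at -325 nt on ERG3 (0.751 RPM) and at -350 nt on SPT8 (0.570 RPM), which is the same place on the chromosome to within 1 bin. ERG3 had 8.69 and 7.32 RPM in its windows (ratio 1.19) and SPT8 had 5.13 and 4.50 RPM (ratio 1.14), and both intervals held 1. At AAC1, an ADP/ATP carrier of mitochondria, the lowest bin lay at -375 nt, which is -80 nt on its partner FET3, a multicopper oxidase with a ratio of 0.501. At PUF3, an RNA-binding protein, the lowest bin also lay at -375 nt, which is -85 nt on YEH1, a steryl ester hydrolase with a ratio of 0.229. Of the 7 genes of the 20 with an upstream trough, 3 had it between -150 and -25 nt on the partner (42.9%), against 73 genes (72.3%) among the others.

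Nutrient transporters held 13 of the 54 members tested from the list (24.1%, against 8.44% of all tested genes), and the median ratio of the 54 was 0.780, against 0.498 over all genes. None of the 13 had a near copy. The highest ratios were at PTR2, the di- and tripeptide transporter, with 7.14 and 3.69 RPM (ratio 1.93), MEP1, an ammonium permease, with 6.91 and 4.29 RPM (ratio 1.61), GAP1, and LYP1, the lysine permease, with 5.16 and 3.72 RPM (ratio 1.39). Their intervals lay above 1. The other 9, PUT4 (proline), HXT4 (glucose), ARN2, ARN1, SIT1 and ENB1 (iron-siderophore complexes), OPT2 (oligopeptides), ZRT1 and THI72, had ratios from 1.00 to 1.19, and each interval held 1. The other ammonium permeases had a depletion: the ratio was 0.398 at MEP3 and 0.363 at MEP2, whose intervals did not overlap that of MEP1.

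Chaperone genes held 6 of 33 (18.2%, against 8.44% of all tested genes), with a median ratio over the list of 0.678, against 0.498 over all genes. The heat-inducible Hsp70 gene SSA4 had 11.1 and 9.501 RPM (ratio 1.17), the disaggregase gene HSP104 had 9.62 and 8.32 RPM (ratio 1.16), the nucleotide exchange factor gene FES1 had 8.40 and 7.85 RPM (ratio 1.07) and the Hsp70 gene SSA3 had 7.11 and 6.99 RPM (ratio 1.02). SSA1 (ratio 1.45) and HSC82 (ratio 1.55) had near copies, and without such genes the count was 4 of 30. Of the 4 without a near copy, only the interval of SSA4 lay above 1.

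Ribosomal protein genes held 9 of 107 (8.41%), beside 8.44% of all tested genes, and 7 of the 9 had near copies: RPS8A, RPS8B, RPL1A (ratio 1.76), RPL24A (1.32), RPL24B (1.26), RPL15A (1.15) and RPS29A (1.04). The 2 without one were RPL43B, with 10.1 and 9.62 RPM (ratio 1.05), and RPL20B, with 8.07 and 7.86 RPM (ratio 1.03). They were among 77 ribosomal protein genes without a near copy. That count covers only the 501 bases around the start codon, so these 2 genes may share sequence outside that stretch. Ribosome biogenesis genes, by contrast, held 1 of 83 (1.20%), CGR1 with a ratio of 1.13, and their median ratio was 0.358. Meiosis and sporulation genes held 2 of 3 tested, the kinase gene MCK1 (ratio 1.23) and the spindle pole gene ADY3 (1.16). Mating genes held 1 of 14 (7.14%, near the 8.44% of all tested genes), FUS3, the pheromone response kinase (ratio 1.05). The 6 genes known for long leaders and the 4 tested genes of subtelomeric families held 0.

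Families were also counted after their values were seen, as a description of who the 203 genes are. Beside each count stands the 8.44% of all tested genes that were in the group. All 5 core histone genes in the table were in the group, with ratios of 3.61 at HHF1 (8.96 and 2.48 RPM), 2.03 at HTA2, 1.46 at HTB1, 1.35 at HTA1 and 1.20 at HHT1, and all 5 had near copies. All 4 PIR cell wall protein genes were in it, from HSP150 (7.57 and 4.75 RPM, ratio 1.59) to CIS3 (1.17), PIR3 (1.09) and PIR1 (1.09). All 4 genes of siderophore transporters were in it as well, with ratios from 1.00 to 1.13. Of the glycerol synthesis genes, GPP2 (1.59), GPD1 (8.71 and 6.06 RPM, ratio 1.44) and GPP1 (1.12) were in the group and GPD2 was not (0.574). Of 7 daughter cell genes, DSE4, DSE1, SCW11 and ASH1 were in it, with ratios from 1.03 to 1.15.

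Both citrate synthase genes in the table were in the group, and the same 8.44% of all tested genes stands beside the counts here. CIT2, the peroxisomal enzyme, had 9.91 and 8.04 RPM (ratio 1.23) and CIT1, the mitochondrial enzyme, had 8.74 and 7.61 RPM (ratio 1.15). Among 8 ergosterol synthesis genes, ERG6 (11.1 and 6.84 RPM, ratio 1.62) and ERG3 were in it, and the other 6 had ratios from 0.460 to 0.865. Subunits of 1 complex also fell on both sides. Of 6 SWI/SNF subunit genes, SNF6 (ratio 1.47) and SWI3 (1.04) were in the group, and the others ran from 0.313 at SNF12 to 0.506 at SNF11. Of the 3 tested genes among the SPT subunits particular to SAGA, SPT3 (4.69 and 2.90 RPM, ratio 1.61) and SPT8 were in it, and SPT7 had 0.285.

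At the 3' end the share of genes with a lower signal was alike in the 203 genes and the rest. Around the transcription end site (TES) the signal from -30 to 80 nt was below that from -140 to -70 nt at 127 of the 203 genes (62.6%), against 61.8% of the genes with a 5' depletion and 61.9% of all tested genes. The medians were 6.06 RPM at the TES and 7.004 RPM upstream of it in the 203 genes, and 6.03 and 7.49 RPM in the others. The ratio of the TES window to the upstream window had a median of 0.887 and of 0.862. The mean profiles differed in shape: the mean was lowest at -20 nt (5.81 RPM) in the 203 genes and at 66.7 nt (6.08 RPM) in the others. Within the 203 genes the share with a lower TES was 64.3% at those with an upstream trough, 64.5% at those with a trough around the TSS and 62.3% at those with one in the body, and it was 20% (1 of 5) at those with the lowest bin in the promoter window.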

How the data were processed

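The WT cells are isogenic to BY4741. The authors digested chromatin with MNase, sequenced the DNA on a SOLiD instrument and mapped the reads to sacCer3 with bfast 0.7.0a; ngs.plot wrote the deposited signal, the coverage in RPM per gene and bin. Read extension, the treatment of reads with several places, the gene annotation and whether the table pools cultures are not given in the sources used here. Columns 25 to 85 of the file, 61 bins, were used, and values below 1e-06 were set to 0. MNase cuts some sequences faster than others, and no naked DNA control was used here.

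Computed here, in Python 3.11.15 with numpy and scipy, were window means, lowest bins, exact binomial intervals, 50-mer uniqueness and near copies (BLAST+, 85% identity over 75 bases), neighbours and sequences. R64 holds 2425 of the 2426 genes, with the strand of the tables for 2425. The rule was tested on simulated profiles. Genes named are the 10 highest ratios with at least 99% unique 50-mers around the start, the 3 on each side of the threshold, the 3 highest and 3 lowest means, the members in the lists, and 2 per class of lowest bin by the ratio of the highest to the lowest bin with a floor of 3 reads; others were chosen after their values were seen. The members and lists were chosen with earlier results of these data known. Only 1 sample was used, so no condition was tested. Alternatives covered the minimum, the windows, uniqueness, neighbours, runs of A or T, GC content and the match of tables.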

Additional observations from a re-analysis of the deposited data

How the results depend on the processing

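No paired analysis was possible because the sample has no replicate. Of 31 alternatives, 23 of them planned, 25 left the value near its main one. The count of 203 genes ran from 164 (without genes with a copy in the TSS window) to 256 (both windows 1 bin upstream) under these, but was 315 with both windows 1 bin downstream, 163 of them among the 203, and 0 when the lowest bin from -200 to 0 nt was set against the highest bin around the TSS. Only 150 of the 256 genes were among the 203, so membership depends on the windows as well. The share of genes with the lowest bin upstream of the promoter window was 37.9% over all 61 bins and 48.3% between -400 and 400 nt. The share with a run of A or T was 87.1% at 5 bases and 15.8% at 10 bases, against 45.05% at 7. The median GC content from 200 to 50 bases before the start codon was 35.8%, and without the far 75 bases of that stretch it was 34.2%, the value of the genes with a depletion there. The 8 alternatives without genes that have copies were chosen after seeing the data. Apart from that count of 0, the cause of these changes was not tested.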
